A study of Mus musculus with 2 samples.

Results

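The genes described here encode the enzymes that add methyl groups to histone lysines, remove them, or belong to the same protein families. They were taken by symbol from the protein-coding genes of mouse chromosomes 1 to 19 and number 58 of 20665. The set holds 8 Kmt, 10 Setd, 14 Prdm, 5 Smyd and 15 Kdm genes, with Ezh1, Ezh2, Dot1l, Nsd1, Nsd2 and Nsd3 as a sixth group. H3R17me2a, an asymmetrically dimethylated arginine in the tail of histone H3, was mapped by ChIP-seq, which sequences the DNA pulled down with an antibody to the mark. The antibody's target is named as H3R17me2 in the protocol and as H3R17me2a in the series design. There were 2 samples in 1 group, wild-type mouse heart at 21 days after birth, with no other genotype, treatment or control analysed here. Both titles contain carm1 while the genotype is given as wild type, and 1 label names primary cardiac fibroblasts where the tissue label and the protocol name frozen heart tissue. Each sample has 1 deposited peak list, called list 1 and list 2 after the sample numbers. Nothing in the labels tells whether separate animals were used.

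Lysine methylation of histones is written by enzymes with a SET domain, by the unrelated Dot1l, and in the Prdm family by a related PR domain joined to zinc fingers. It is removed by the amine oxidases Kdm1a and Kdm1b and by the larger group of Jumonji C demethylases. Methylation of H3K4 is typical of active starts and enhancers, that of H3K36 and H3K79 of transcribed genes, and that of H3K9, H3K27 and H4K20 of repressed or compacted chromatin. The arginine mark studied here is written by Carm1, a coactivator that acts beside these enzymes at active promoters. Smyd1 is the member of the set known for striated muscle, where it is needed for sarcomere assembly.

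On chromosomes 1 to 19, X and Y, list 1 held 21496 peaks and list 2 held 38012, with median widths of 460 and 459 bp. The lowest −log10 p was 5 in the first and 2.01 in the second. Fold enrichment, or fold, is the authors' own ratio of signal over background for each peak, compared here within a list only, and its median was 4.98 in list 1 and 3.53 in list 2. The reads at each summit were computed back from fold and p together, and whole numbers that matched the deposited p were found for 99.9% of peaks in each list. Of 20978 overlapping peak pairs 42.1% had an identical summit position, and the median difference in recovered reads over pairs was 1. The samples were therefore counted as 1, so that the values of the lists carry no replicate error, no test between samples was possible, and both values are given side by side. A background given for list 2 is on a scale on which a read counts 0.618, as fold and p of that list require, so it cannot be set against a background of list 1. Among marker genes, 9 of 10 of cardiomyocytes had a peak of both lists at a gene end, against 0 of 10 of fibroblasts, 1 of 10 of endothelium, 2 of 10 of immune cells and 2 of 8 of mural cells. The marks at these defining genes thus go against the label that names fibroblasts. Carm1 itself was marked, with folds of 4.33 and 2.86.

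Genes of lysine methylation carried H3R17me2a more often than genes at large, while among peaks of high fold the 2 shares lay closer together. A gene counted as marked when a peak of each list lay within 1000 bp of either end of its span. By that rule 44 of the 58 genes (75.9%, 95% exact interval 62.8 to 86.1%, for counting error only) were marked, against 40.1% of all protein-coding genes. A shared peak, one of list 1 that overlaps one of list 2, lay within the span of 48 genes (82.8%), against 44.6% of all. With each list limited to its upper 50% by fold, 10 of the 58 genes (17.2%) had a mark at an end, against 12.6% of all genes. Those 10 were Kmt2b, Setd1a, Setd4, Setd6, Setdb1, Smyd1, Kdm3a, Kdm5b, Kdm7a and Kdm8.

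These genes are long, and shares were therefore also set against genes of like length. The 58 genes had a median span of 51598 bp, against 17491 bp for all. Within the class of 30 to 100 kb, which holds 31 of them, 28 were marked at an end (90.3%), against 48.3% of all genes of that length. The share was 64.3% of 14 genes of 10 to 30 kb, where all genes stood at 46%. Over 100 kb it was 45.5% of 11 genes, against 40.6%. For peaks anywhere in the span, 10 of those 11 long genes had one (90.9%), against 59.2%.

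**Figure D1:**
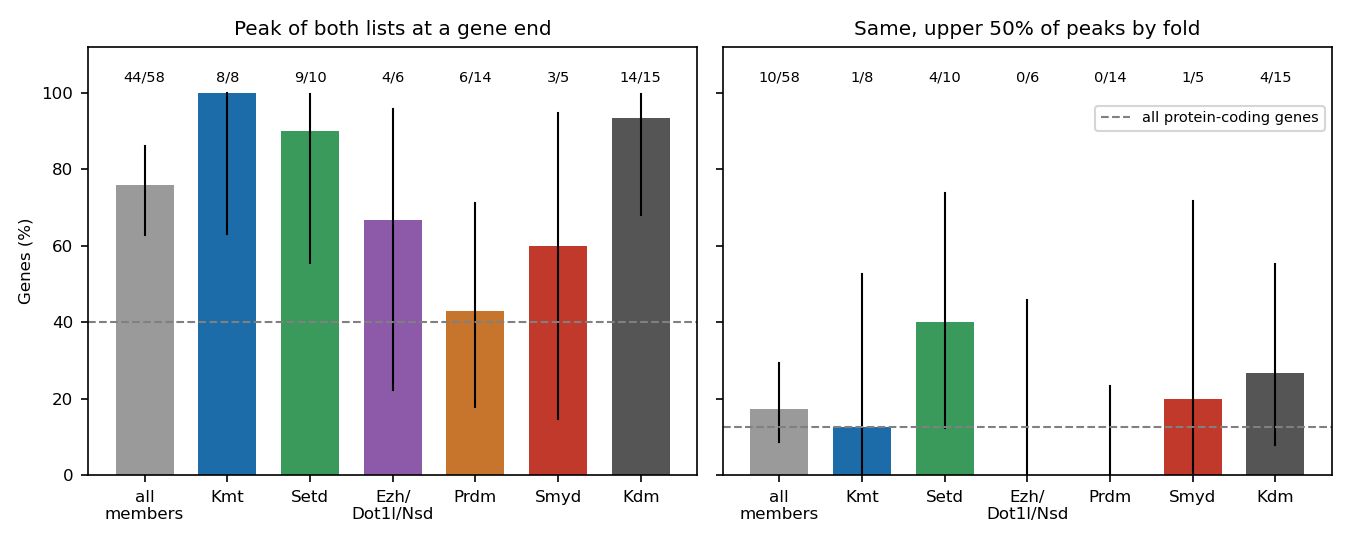
Share of genes in each family with a peak of both lists at a gene end (left) and the same in the upper 50% of peaks by fold (right), in percent of genes; black lines are 95% exact binomial intervals, numbers above are marked genes over all genes, and the dashed line is the share of all protein-coding genes. On the left 8 of 8 Kmt and 14 of 15 Kdm genes stand above the line and Prdm genes, 6 of 14, lie near it; on the right no Prdm gene and none of the Ezh, Dot1l and Nsd group is left.

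The families fell into those marked almost throughout and those marked in part. All 8 Kmt, 9 of 10 Setd and 14 of 15 Kdm genes were marked at an end, and 4 of 6 genes of the Ezh, Dot1l and Nsd group and 3 of 5 Smyd genes. The Prdm family, with 6 of 14 (42.9%), lay near the share of all genes, and without it 38 of 44 genes were marked (86.4%). With so few genes the intervals overlap widely, from 17.7 to 71.1% for Prdm and 63.1 to 100% for Kmt, and the families were not tested against each other.

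Of the Kmt genes, which write H3K4 and H4K20 methylation, the strongest by summed rank were Kmt2b, Kmt2d, Kmt5c and Kmt2e. Kmt2b, which methylates H3K4 at promoters (chromosome 7, 30568855 to 30589056), had folds of 6.15 in list 1 and 5.62 in list 2, from narrow peaks of 192 and 318 bp with 27 and 28 recovered reads. Its peak lies at the end that has the Zbtb32 end 624 bp away, so that it cannot be assigned to 1 gene. Kmt2e, a family member without settled enzyme activity (chromosome 5, 23433036 to 23504235), had folds of 4.86 and 5.33 from peaks of 2288 and 2289 bp that ended on the same base, 23435018. These were the widest gene-end peaks of the set, with 305 and 309 reads over backgrounds of 62 and 35. Kmt5c, which writes the higher methyl states of H4K20 (chromosome 7, 4740092 to 4747514), had 3.83 and 8.24, with the summit of both lists 61 bp before the annotated start.

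Kmt2d, the H3K4 methyltransferase of enhancers (chromosome 15, 98831669 to 98874077), showed how a gene-end peak can lie away from the start. Its folds of 4.15 and 7.21 came from the 3′ end, where the end of Prkag1 is 161 bp away. A separate shared peak lay inside the span with its summit 914 bp before the annotated start, with folds of 5.31 and 3.83 and 174 and 172 reads. The other Kmt genes had lower folds at their ends. Kmt2a had 3.49 and 2.75 and Kmt2c, the partner of Kmt2d at enhancers, 3.64 and 3.31. At Kmt5b, which shares the H4K20 role of Kmt5c, folds of 2.88 and 1.99 stood on 414 and 417 reads, the most at any gene-end peak of the set, over recovered backgrounds of 143 and 129. Kmt5a, the enzyme of H4K20 monomethylation, had 1.81 and 3.18 at its first start and 2 more shared peaks within 1000 bp of its other annotated starts. A further shared peak inside Kmt5a, 3535 bp after the nearest annotated start, had higher folds of 8.25 and 6.93, on 32 reads in each list.

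The highest list 1 fold of any gene-end peak in the set was at a Setd gene. Setd4 (chromosome 16, 93583457 to 93604791) had 9.34 in list 1 and 7.83 in list 2, with 83 and 87 reads over backgrounds of only 8 and 6. Setdb1, which writes H3K9 trimethylation (chromosome 3, 95323525 to 95357202), had 7.63 and 7.66 from summits 32 and 29 bp before its start. Setd6 (chromosome 8, 95715634 to 95721507), whose product methylates the NF-kappa-B subunit RelA, had 7.2 and 6.18, at an end 678 bp from that of Ndrg4. Setd1a, an H3K4 methyltransferase of the COMPASS complex (chromosome 7, 127777389 to 127800122), was marked at both ends. Its strongest peaks were at opposite ends, with 6.08 at the start in list 1 and 4.49 at the 3′ end, near Hsd3b7, in list 2, and the list 2 peak at the start had a fold of 3.84.

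The other marked Setd genes ranged from 2.26 to 4.72 in list 1 and from 2 to 4.93 in list 2. Setd2, the enzyme of H3K36 trimethylation, had 4.72 and 2.98. Setd1b, the near relative of Setd1a, had 3.19 and 2.72 from peaks of 2268 and 2262 bp, and only it and Kmt2e exceeded 2000 bp in both lists; its marked end lies 232 bp from that of Rhof. Setd3, which methylates a histidine of actin, had 4.05 and 4.19, at an end 37 bp from that of Ccnk. Setd7 had 3.76 and 4.93, and Setd5 had 2.26 and 2 with 248 reads in both lists over backgrounds of 109 and 76. Setdb2, a relative of Setdb1, was the exception: list 2 had a peak with a fold of 4.62, 88 reads and its summit 27 bp before the start, and list 1 had none. The span of Setdb2 shares an end with Gm45935.

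The Ezh, Dot1l and Nsd genes had low folds where they were marked, with medians of 2.62 and 2.92. Their reads were not low, with medians of 114 and 118. Nsd3, a writer of H3K36 dimethylation (chromosome 8, 25601601 to 25719667), had peaks of both lists at both ends. The strongest by fold, 4.8 and 3.81 at the end near Plpp5, rested on 23 reads in each list. At the other end of Nsd3 the folds were 2.21 and 3.73, on 125 and 131 reads. Dot1l, the H3K79 methyltransferase (chromosome 10, 80755101 to 80795461), had 2.53 and 2.98, with summits 171 and 170 bp before the start. Ezh2, the catalytic subunit of Polycomb repressive complex 2 (chromosome 6, 47530274 to 47595270), had 1.64 and 2.86, both with the summit 70 bp before the start and 150 and 151 reads. Nsd2 (chromosome 5, 33820676 to 33897966) had 2.7 and 2.08, at an end 188 bp from that of another gene.

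Ezh1 and Nsd1 were not marked at an end in both lists. Ezh1, the form of the Polycomb enzyme typical of cells that no longer divide, had a peak in list 2 alone, with a fold of 2.43, 18 reads and its summit 16 bp before the start. Nsd1 had none within 1000 bp of an end. A shared peak of Nsd1 lay just beyond that window, with its summit 1901 bp inside the span in both lists. Its folds were 2.24 and 3.61, on 297 and 290 reads. With a window of 3000 bp Nsd1 counted as marked and was the only gene added.

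Prdm genes divided into 6 with a marked end and 8 without. Prdm4 (chromosome 10, 85891964 to 85917152) was the strongest, at 4.27 and 6.01, with both summits 16 bp before a start. Prdm16, a regulator of brown fat and of the developing heart (chromosome 4, 154316122 to 154637360), had 3.93 and 3.12, with 52 and 51 reads. Prdm15 (chromosome 16, 97791467 to 97851875) had 3.61 and 3.28 and Prdm2 (chromosome 4, 143107391 to 143212769) 2.33 and 3.53, and in both genes the strongest peaks of the lists did not overlap. At Prdm2 the list 2 value came from 8 reads at the end opposite to the list 1 peak, and a second list 2 peak at the end marked in list 1 had a fold of 2.29. Prdm11 had 2.7 and 2.86.

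Prdm9, known for placing recombination hot spots in meiosis, was marked as well. Its peaks, of 380 and 372 bp from the same first base, had folds of 3.04 and 2.36, and the summits carried 221 and 220 reads over backgrounds of 72 and 57. That background lay above the members' median of 19 in list 1.

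The unmarked Prdm genes had a gene-end peak in neither list or in list 2 alone. No gene-end peak was found in either list at Prdm12 and Prdm13, which act in neurons, at Prdm6, known from smooth muscle, or at Prdm10. List 2 alone had weak peaks at Prdm1, a regulator of lymphocyte and germ cell fate (2.8), at Prdm8, known from neurons (2.43), and at Prdm14, of germ cells and pluripotency (3.53), each on 5 to 8 reads. Prdm10 differed from the rest in its annotation: a shared peak of 1318 and 1066 bp, with 118 and 115 reads and folds of 3.61 and 3, had its summit 4405 bp inside the recorded span and 34 bp before an annotated start.

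**Figure D2:**
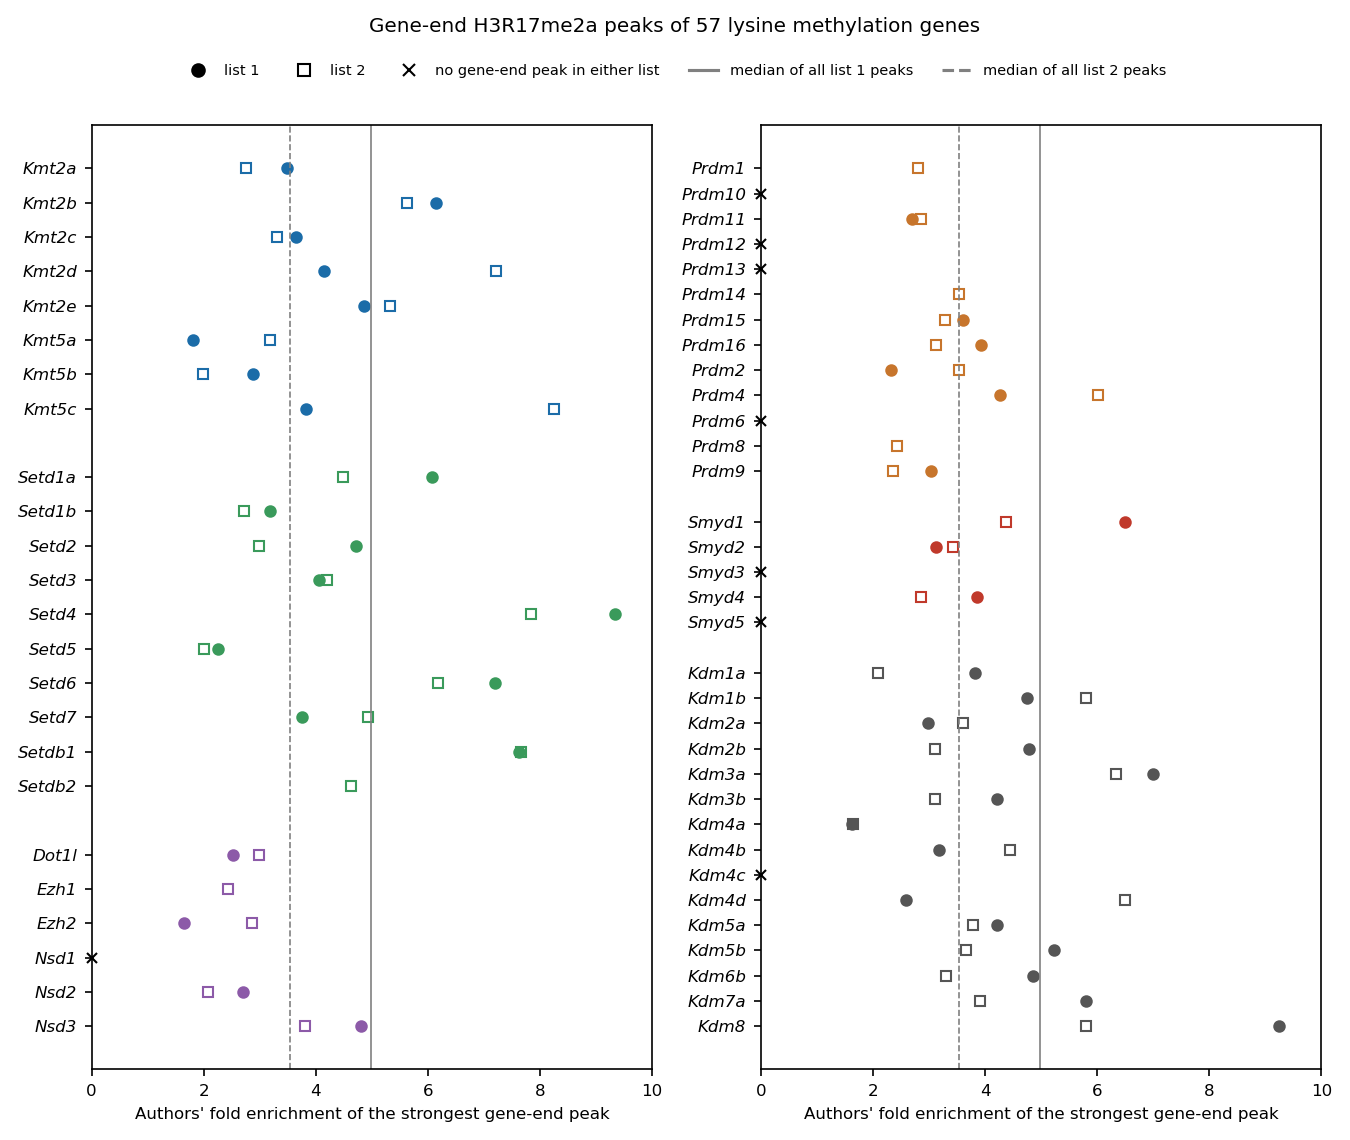
Fold enrichment (authors' ratio, horizontal axis) of the strongest gene-end peak of 57 of the genes, by family from top to bottom, with filled circles for list 1, open squares for list 2 and crosses for the 8 of them with no gene-end peak in either list; grey lines are the medians of all peaks of list 1 (solid, 4.98) and list 2 (dashed, 3.53). Setd4, at 9.34 and 7.83, and Kdm8, at 9.25 and 5.81, have the highest list 1 values, and no Prdm, Ezh, Dot1l or Nsd gene reaches 4.98 in list 1.

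Smyd1, the muscle member, stood apart within its family. At its annotated start (chromosome 6, 71262281, minus strand, in a span from 71213940 to 71262281) both lists had a peak, of 1003 bp with a fold of 6.5 in list 1 and of 1201 bp with a fold of 4.19 in list 2. The summits lay 12 and 13 bp after the start and held 38 reads over a background of 5 in list 1 and 39 reads in list 2. List 2 had a second peak nearby, 1380 bp before the start, whose fold of 4.38 was the higher one but rested on 11 reads. Smyd1 was the only Smyd gene that kept its mark in the upper 50% of peaks by fold.

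Smyd2 and Smyd4 were marked at the start at lower fold. Smyd2, a methyltransferase of cytosolic and nuclear proteins (chromosome 1, 189880492 to 189922495), had 3.12 and 3.43, with both summits 32 bp after the start and 77 and 76 reads over backgrounds of 24 and 13. Smyd4 (chromosome 11, 75348433 to 75405707) had 3.85 and 2.86, with both summits 16 bp before the start, but the end of Rpa1 lies 21 bp away. Reads at the summits of Smyd2 and Smyd4 were thus higher than at Smyd1 while in list 1 the folds were lower and the recovered backgrounds higher. Smyd5 (chromosome 6, 85431976 to 85446429) had no peak of either list in its span or at its ends. Smyd3, the longest gene of the set at 566094 bp, had none at its ends.

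Inside their spans the Smyd genes differed as well. Smyd1 held 4 shared peaks away from its ends, with summits in list 1 at 3476, 20661, 22034 and 26928 bp from the start and folds there of 5.41, 5.97, 5.47 and 6.46. The reads at these summits were few and nearly equal in the lists, 10 and 10, 11 and 11, 10 and 9, and 16 and 16. List 2 had 17 peaks within the span of Smyd1 and list 1 had 5, and they covered 19.6% and 5.39% of it. Most of the list 2 peaks there overlapped none of list 1. Most of these had a −log10 p under 5, the lowest of list 1. Of all genes of 30 to 100 kb, 3.85% held at least the 5 shared peaks that lie in the span of Smyd1 and 0.615% at least as many list 2 peaks. Smyd2 held 2 interior shared peaks, the stronger one 22593 bp from the start with folds of 6.62 and 4.42, above those at its start. Smyd3 held 2 as well, and the stronger one had folds of 11.9 and 8.3 on 23 and 21 reads.

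**Figure D3:**
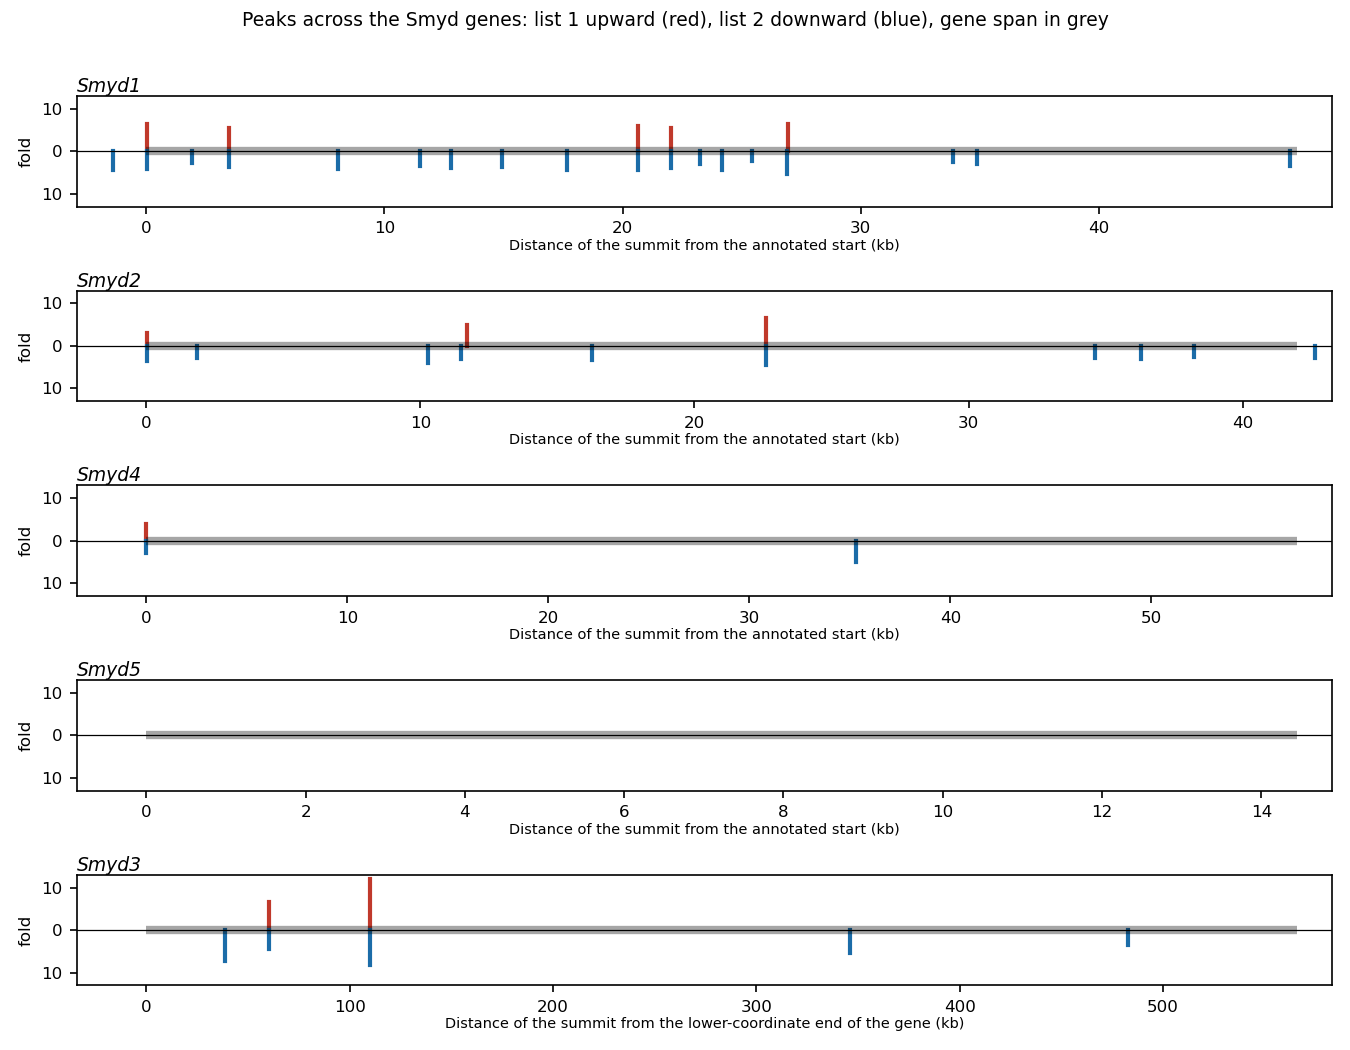
Peak summits across the 5 Smyd genes by distance from the annotated start in kb (for Smyd3 from the lower-coordinate end), with bar height giving the authors' fold, list 1 upward in red and list 2 downward in blue, and the gene span in grey. Smyd1 has a peak at its start and 4 interior positions with a peak in both lists among 17 list 2 peaks in its span, Smyd4 has 1 in both lists at its start, and Smyd5 has none.

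Of the 15 demethylase genes 14 were marked at a gene end, and Kdm4c, which was not, had a shared peak at an annotated start inside its span. Kdm8 (chromosome 7, 125444620 to 125463651), a Jumonji C protein, had 9.25 in list 1 and 5.81 in list 2, with 36 reads in each and a background of 3 in list 1. Kdm3a, which removes H3K9 methylation (chromosome 6, 71588970 to 71632990), had 7 and 6.34 from wide peaks of 1361 and 1580 bp with 143 and 142 reads. Kdm1b, an amine oxidase that acts on H3K4 (chromosome 13, 47043373 to 47085279), had 4.75 and 5.81, at an end 35 bp from that of Tpmt. Kdm7a (chromosome 6, 39136620 to 39206773) had 5.81 and 3.92 from peaks of 1958 and 1938 bp with the same summit, 1036 bp after the start.

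Kdm5b, of the H3K4 group, had 5.23 and 3.66, with the end of Mgat4e 1568 bp away, and Kdm5a 4.22 and 3.79, with that of Ccdc77 270 bp away. Kdm2a and Kdm2b, which act on H3K36, had 2.98 and 3.61 and 4.78 and 3.11, and the strongest peaks of Kdm2a lay at opposite ends, while peaks of both lists met at the end 80 bp from that of 9430078G10Rik. Kdm3b, the near relative of Kdm3a, had 4.22 and 3.11. The Kdm4 group acts on H3K9 and H3K36. By the strongest gene-end peak per gene, Kdm4a had the lowest folds of the whole set, 1.62 in list 1 and 1.65 in list 2. The summits there held 143 and 140 reads, and a shared peak inside its span had folds of 3.63 and 9.24. Kdm4b had 3.18 and 4.44. Kdm4d, known from testis, had 2.6 and 6.5, but its end lies 82 bp from that of Cwc15. Kdm4c had no peak at an end of its span and a shared one, of 2.14 and 4.16 with 125 and 133 reads, 38 bp before an annotated start inside it. Kdm1a, the amine oxidase better known as LSD1, had 3.82 and 2.09 and did not count as marked when a −log10 p of 5 was required of list 2 as well. The same held for Kdm6b, which removes H3K27 methylation and whose end lies 274 bp from that of Tmem88: its end peaks of 4.86 and 3.3 rested on 16 and 14 reads, while peaks with up to 131 reads lay inside the gene.

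Folds at these genes were modest while reads were many. Over the 44 marked genes the strongest gene-end peak had a median fold of 3.89 in list 1 and 3.57 in list 2, against 4.15 and 3.88 over the 8284 marked genes. The recovered reads at the same summits were higher, with medians of 81 and 77 against 51 and 54, and so was the recovered background, at 19 in list 1 against 11. The list 2 background, on a scale of reads multiplied by 0.618, had a median of 10.4 against 7. In 10 of the 44 genes the fold reached the median of all peaks in both lists (22.7%), against 31.6% of marked genes. The peaks were also wider, with a median of 742 and 968 bp for the widest gene-end peak, against 547 and 713 bp. In 14 genes (31.8%) that peak reached 1000 bp in both lists, against 16%.

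**Figure D4:**
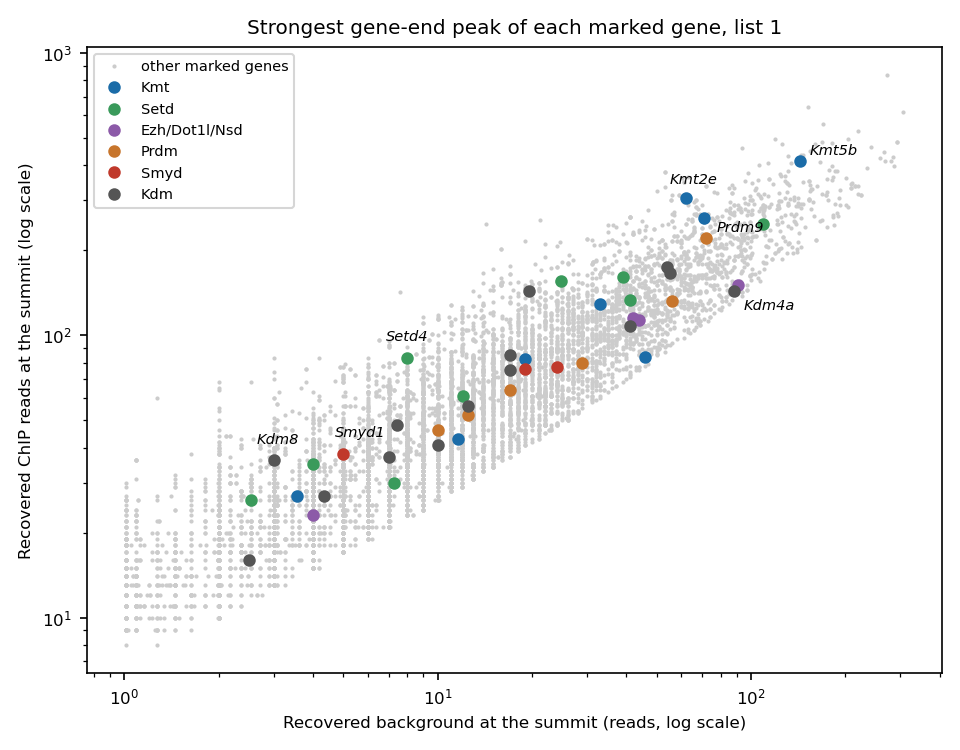
Recovered ChIP reads against recovered background at the summit of the strongest gene-end peak in list 1, both in reads on log axes, for marked genes with recovered values (grey) and the 44 members coloured by family. Kmt5b (414 reads, background 143) lies at the upper right, Kdm8 (36 reads, background 3) and Smyd1 (38 reads, background 5) at the lower left with a larger ratio of reads to background.

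At these genes, as at genes at large, the mark lay mostly at the start. A promoter table from RefSeq gave a start for 42 of the 58 genes and for 16457 genes in all, and 34 of the 42 (81%) had a peak of both lists within 1000 bp of one, against 42.2% of all. Of 33 marked members over 5000 bp with a known strand, 31 were marked at the 5′ end alone (93.9%), Kmt2d at the 3′ end alone and Setd1a at both, beside 90.2% at the 5′ end alone over all genes. Summits of the strongest start peak lay within 500 bp of the start in 30 of 34 genes in list 1 (88.2%) and 27 in list 2 (79.4%), against 89.5% and 89.8% of all genes marked at a start, and their median position was 33 and 31.5 bp before it. Of the 44 marked genes, 15 (34.1%) were marked at an end with the end of another gene no more than 2000 bp away, against 35.7% of all marked genes. In 38 of the 44 the strongest peaks of the lists overlapped, and in 26 their summits lay within 10 bp of each other. Neither was counted over all marked genes, so both describe the members only.

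Peaks away from the ends were found in 20 of the 58 genes (34.5%), against 16.1% of all genes. Both shares include peaks at annotated starts that lie inside a span. In Kmt2d, Prdm10 and Kdm4c every shared peak away from the ends lay within 1000 bp of such a start. Among genes of like length the shares lay closer, at 29% against 25.4% for 30 to 100 kb, which holds 31 of the 58, and 21.4% against 13.6% for 10 to 30 kb. Over 100 kb the share was 72.7% of 11 genes, against 43.4%. Of the 48 genes with a body peak 30 had a single one (62.5%), against 71.5% of all genes with a body peak, and 17.2% of the 58 held 3 or more, against 6.13% of all genes. Prdm16 had 15 shared peaks in its span, Kdm6b 8 and Dot1l 7. As many as these were held by 0.353%, 1.24% and 1.59% of all genes. Like the share with 3 or more, these shares are over genes of every length, and Prdm16 spans 321239 bp. Per 10 kb it held 0.467 shared peaks, Kdm6b 3.66 and Dot1l 1.73. Of all genes of 30 to 100 kb, 1.86% held as many as Dot1l. Per 100 kb of span the 58 genes together held 2.49 shared peaks and all protein-coding genes 1.73. In Prdm16 the strongest shared peak by reads was far from the start, 306705 bp into the gene in both lists. It had 158 and 165 reads and folds of 5.48 and 10.3. In Dot1l a shared peak 3690 bp after the start had folds of 8.4 and 6.68, above 2.53 and 2.98 at the start itself. In Kdm6b the peaks covered 25.8% of the span in list 1 and 34.8% in list 2, the largest shares among the 58 genes, and the one with most reads, 131 in each list, had folds of 3.67 and 3.28.

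Most of these genes have CpG-rich starts, and Smyd1 does not. In the 300 bases of the promoter table the ratio of observed to expected CpG had a median of 0.888 over the 42 genes, against 0.628 over all, and for a gene with several starts the highest ratio was taken. It exceeded 0.6 in 32 of the 34 genes marked at a start (94.1%) and in 85.2% of all marked genes. The exceptions were Smyd1, at 0.156 with 3 CpG, and Prdm10, at 0.6. Over all genes the marked share rose with the ratio, from 3.03% of 3398 genes under 0.2 to 81% of 1573 genes at 1.0 and above. Above 0.6, 32 of 36 members were marked (88.9%), against 68.8% of all genes, and at or under it 2 of 6, against 13.1%.

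The 200 bases before the annotated start are shown for the Smyd genes with a start in the table, for Kdm8 as the demethylase with the highest fold in list 1, and for Prdm13 as a gene without a peak. They are given 5′ to 3′ on the gene's strand from the RefSeq table for GRCm38.p6, whose chromosomes have mm10 coordinates, with CpG in capitals. Smyd1 has 2 CpG and a marked start, Smyd5 has 9 and none, and Smyd2 and Smyd4, both marked, have 32 and 23. Kdm8, which is marked, and Prdm13, which is not, have 6 each, so that these stretches do not separate that pair by CpG.
Smyd1, chr6:71262282-71262481, minus strand: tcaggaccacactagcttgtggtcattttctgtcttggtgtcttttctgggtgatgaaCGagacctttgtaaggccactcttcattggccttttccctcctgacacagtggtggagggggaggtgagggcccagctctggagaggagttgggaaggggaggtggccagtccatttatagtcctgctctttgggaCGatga
Smyd2, chr1:189922292-189922491, minus strand: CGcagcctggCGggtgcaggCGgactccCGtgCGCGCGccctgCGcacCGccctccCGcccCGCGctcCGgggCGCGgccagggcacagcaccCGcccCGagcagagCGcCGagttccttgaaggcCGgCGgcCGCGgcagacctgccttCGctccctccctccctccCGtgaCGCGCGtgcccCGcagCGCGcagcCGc
Smyd4, chr11:75348233-75348432, plus strand: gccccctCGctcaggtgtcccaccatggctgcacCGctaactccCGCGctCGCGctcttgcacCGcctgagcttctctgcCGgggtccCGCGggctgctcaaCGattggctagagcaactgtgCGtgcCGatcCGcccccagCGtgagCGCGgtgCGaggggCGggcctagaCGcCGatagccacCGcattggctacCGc
Smyd5, chr6:85431776-85431975, plus strand: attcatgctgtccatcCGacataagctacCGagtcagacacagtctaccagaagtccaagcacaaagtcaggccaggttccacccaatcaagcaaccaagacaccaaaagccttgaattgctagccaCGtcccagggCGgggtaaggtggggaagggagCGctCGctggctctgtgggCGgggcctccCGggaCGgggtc
Kdm8, chr7:125444420-125444619, plus strand: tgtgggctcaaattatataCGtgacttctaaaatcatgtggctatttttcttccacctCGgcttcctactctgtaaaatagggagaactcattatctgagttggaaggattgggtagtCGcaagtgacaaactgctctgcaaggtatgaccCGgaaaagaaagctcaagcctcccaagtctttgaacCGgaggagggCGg
Prdm13, chr4:21685964-21686163, minus strand: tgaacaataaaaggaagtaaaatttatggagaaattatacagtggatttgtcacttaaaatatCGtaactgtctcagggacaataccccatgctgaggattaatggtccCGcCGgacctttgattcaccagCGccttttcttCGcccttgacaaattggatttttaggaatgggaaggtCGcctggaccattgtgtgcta
The list 1 peak at Smyd1 spans the whole of its printed stretch, as does that at Smyd2, and that at Smyd4 begins within it.

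**Figure D5:**
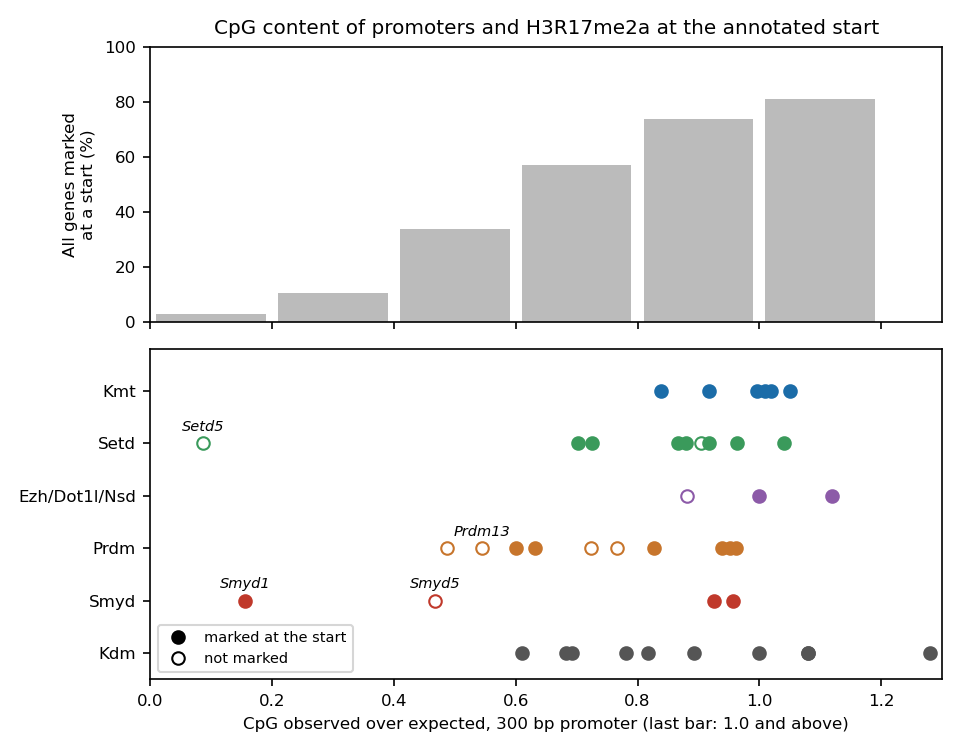
Top, share of all protein-coding genes with a peak of both lists at an annotated start, in percent, by the ratio of observed to expected CpG in the 300 base promoter; bottom, the 42 members with an annotated start at their own ratio, by family, filled where marked and open where not. Smyd1, at 0.156, is a filled point far left of the other marked genes, the next being Prdm10 at 0.6.

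Short sequence motifs were few in these promoters. On either strand of the 300 bases, the ETS motif CCGGAAG was found in 9 of 42 genes (21.4%) and in 13.3% of all, with Dot1l, Kdm3a, Setd4, Setd6 and Setdb1 among the 9. The MEF2 motif CTANNNNTA was found in 5 genes (11.9%, against 21.5%), Smyd1 not among them, and the GATA motif AGATAA in 4 (9.52%, against 11.2%). The YY1 motif AAGATGGCG was found in Dot1l and Smyd5 (4.76%, against 2.14%), the NRF1 motif GCGCATGC in Smyd2 (2.38%, against 3.99%), and the CRE motif TGACGTCA and the ERR motif TCAAGGTCA in none (0, against 2.63% and 0.383%).

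Genes of the complexes in which these enzymes work were mostly marked as well, where 40.1% of all genes were. The lists are small: the 95% exact interval for 7 of 10 genes runs from 34.8 to 93.3%, and the intervals of the Polycomb, Kdm1a, reader and Smyd1 lists reach below 40.1%. Of 12 genes listed as COMPASS partners, with Kansl1 counted among them, 10 were marked and Ash2l and Dpy30 were not. Rbbp5, a core subunit (9.5 and 11.3), and Men1, the tumour suppressor menin (9.33 and 6), came first. Partners of Dot1l in transcript elongation were marked at 8 of 9, with Ell (7.34 and 7.44) and Aff1 (6.78 and 4.23) first, and partners of the demethylase Kdm1a at 6 of 8, with Rcor2 (7.88 and 5.53) and Rcor1 (4.83 and 4.14). Of Polycomb partners 7 of 10 were marked, among them Rbbp4 (4.12 and 6.56) and Eed (5.81 and 4.05). Ezhip, an unmarked Polycomb partner, is on chromosome X, outside the genes behind the 40.1%. Of readers of methylated lysine 7 of 10 were marked, among them Cbx8 (2.73 and 8.8) and L3mbtl3 (5.24 and 3.66). A further list held 12 chosen genes of lysine methyl enzymes and related proteins whose symbols fall outside the rule. It is not a full count of such enzymes. All 12 were marked, with Hr (4.75 and 6.37) and Setmar (5.36 and 4.59) first. Of the genes tied to Smyd1, 5 of 6 were marked. Among them were Naca (7 and 4.31), the binding partner of Smyd1 in muscle, the heat shock gene Hsp90aa1 (6.17 and 3.96), and the myosin chaperone Unc45b (5.67 and 3.99). Mef2c was not marked at an end but held 6 shared peaks within its span. The ends of Men1, Ell, Rcor2 and Rbbp4 that carry the mark have the end of another gene nearby, no more than 2000 bp away.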

How the data were processed

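The members and the gene lists were chosen with earlier results of these data known. Of the 58 members 1 enters the counts but is not reported here by itself. ChIP-seq for H3R17me2a came from 2 samples of 1 group, so no comparison between groups was possible. FastQC, Bowtie2 and mm10 are named, without versions, in the submitters' processing notes, while the peak caller, the control and any filter were not given in the sources used here. The deposited fold is a linear ratio at the summit, the deposited −log10 p and q are the caller's, and the deposited score equals 10 times the −log10 of p to within 1, as the layout and values of the files, which have no header, show. Column 10 of the deposited files gives the summit.

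Reads at summits were recovered as the whole number that reproduces p within 0.001 as an upper Poisson tail, taking the fold as (reads + 1) / (background + 1). For list 2 the reads were first multiplied by 0.618, a factor found by a scan over peak pairs with identical summits, where 35.7% of pairs then had equal reads. Depth per sample beyond these reads is unknown.

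Genes are the RefSeq spans of GRCm38.p6, with starts and strand from its promoter table where given (42 of 58 members). Kdm2a, Kdm3b, Kdm4b, Kdm5a, Kdm6b, Kmt2b, Kmt2e, Nsd1, Nsd2, Nsd3, Prdm2, Prdm6, Prdm14, Setd1b and Smyd3 had no entry. Overlap meant at least 1 bp, coordinates are 1-based, and a value per gene is that of its strongest peak by fold. Genes in full are every Smyd gene and the 4 of each other family with the lowest summed rank by fold, and others are named by value after their values were seen. Intervals are 95% exact binomial. No test was run over genes, which are not replicates. The calls and the read recovery were tested on simulated data. Python 3.11.15, pandas 2.3.3 and scipy 1.17.1 were used.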

Additional observations from a re-analysis of the deposited data

How the results depend on the processing

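Both lists rest on 1 group and, where their peaks overlap, on nearly the same reads, so leaving out either shows how peak calling moves a value and not the spread between animals. The peaks in list 2 alone at Prdm1, Prdm8 and Prdm14 hold 5 to 8 reads and have a −log10 p of 2.27 to 3.15, under the lowest of list 1, which is 5. The share of members marked at an end ran from 75.9 to 84.5% without 1 list (40.6 to 47.7% of all genes), the body share from 82.8 to 91.4% (45.2 to 55.3%), and the Setd share from 90 to 100%. No paired analysis was possible because the series has 1 group. With each list limited to its upper 50% by fold the share fell to 17.2% at an end, 36.2% in the body and 23.8% at an annotated start, and by family to 12.5% for Kmt, 40% for Setd, 0% for Ezh, Dot1l and Nsd, 0% for Prdm and 26.7% for Kdm. All genes stood at 12.6% at an end and 19.5% in the body there. Their share at an annotated start was not computed for that setting, so the 23.8% has no comparison. With only summits counted, the body share was 65.5%, against 34% of all genes. Among the other settings the end share ran from 67.4%, without genes marked at an end shared with another gene (30.1% of all genes), to 77.6%, with a window of 3000 bp (44.5%). Among genes with both ends over 2000 bp from another gene's end, a setting chosen after seeing the data, it was 70% of 30, against 30.7% of all. Under the 11 settings in which single genes were called again, Kdm3a, Kdm5b, Kdm8, Kmt2b, Setd1a, Setd6, Setdb1 and Smyd1 were marked in every one, and Kdm4c, Prdm6, Prdm10, Prdm12, Prdm13, Smyd3 and Smyd5 were among those marked in none. Leaving aside the upper 50%, 36 of the 44 marked genes were marked throughout. Single genes outside the set were not followed in this way, so that count describes the members only.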

Other observations

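Genes that fit the symbols but lie on the sex chromosomes were left out of every count above. Kdm5c, an H3K4 demethylase gene on chromosome X (152233198 to 152279102), was marked, and its folds were 9.39 (list 1) and 5.68 (list 2). Both peaks started at base 152232836, and their summits held 85 and 81 reads. That fold in list 1 was above the 9.34 of Setd4, the highest of any gene-end peak among the 58 genes. Its partner on chromosome Y, Kdm5d (897566 to 943813), had a peak in list 2 alone, with a fold of 5.76, 17 reads and its summit 315 bp before the start. Kdm6a, an H3K27 demethylase gene on chromosome X (18160862 to 18279936), had no peak of either list at its ends and no shared peak in its span, whereas Kdm6b on chromosome 11 had 8.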
